A study of Mus musculus with 8 samples.

Results

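The mitochondrial genome of the mouse was examined in RNA sequencing libraries of hippocampal tissue from adult mice, a brain region used in learning and memory. All genes that the deposited annotation places on chromosome MT were taken, which gave 37 of the 54532 genes listed. They comprise 13 protein-coding genes, 2 ribosomal RNA (rRNA) genes and 22 transfer RNA (tRNA) genes. The study compared 4 libraries labelled WT with 4 labelled Kat6a+/-, mice heterozygous for the histone acetyltransferase gene Kat6a. Its title concerns RSPO2 and Wnt signalling in the CA3 field of the hippocampus. The sample labels give the genotype and the tissue, and no strain, sex, litter, batch or nature of the Kat6a allele. Whether the libraries of a genotype are from different animals is not stated, so the spread behind each p-value is one between libraries and may be partly technical.

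The mitochondrial genome is a small circle of double-stranded DNA, kept in many copies per cell and inherited apart from the chromosomes of the nucleus. Both strands are transcribed into long precursors by a dedicated RNA polymerase, POLRMT. The tRNAs lie between most of the other genes and are cut out at both ends, which frees the mRNAs and rRNAs. The mRNAs encode subunits of the respiratory chain and of ATP synthase, which supply neurons with most of their ATP, and the rRNAs and tRNAs serve the mitochondrion's own ribosomes. Stretches of mitochondrial DNA have also been copied into the nuclear genome during evolution, and such nuclear copies can be nearly identical to the original.

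The tRNA sequences that the results turn on are shown here with the anticodon in capitals, written 5′ to 3′ as DNA from the GENCODE M21 transcripts on GRCm38. The first 5 are those of proline, tyrosine, arginine, asparagine and cysteine, and the last, of aspartate, had no read in any library. On GRCm38 they lie at chrMT:15356-15422 (minus strand), chrMT:5260-5326 (minus), chrMT:9808-9875 (plus), chrMT:5089-5159 (minus), chrMT:5192-5257 (minus) and chrMT:6942-7011 (plus), in this order.
mt-Tp: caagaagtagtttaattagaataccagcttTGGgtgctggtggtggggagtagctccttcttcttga
mt-Ty: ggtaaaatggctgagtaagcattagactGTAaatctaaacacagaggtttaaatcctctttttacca
mt-Tr: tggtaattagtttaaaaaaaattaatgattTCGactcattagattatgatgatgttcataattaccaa
mt-Tn: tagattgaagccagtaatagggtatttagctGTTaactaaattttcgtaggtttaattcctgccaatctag
mt-Tc: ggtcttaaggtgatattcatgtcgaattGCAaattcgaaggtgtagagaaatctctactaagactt
mt-Td: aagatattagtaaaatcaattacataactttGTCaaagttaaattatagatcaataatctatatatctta

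The next sequences show how closely a mitochondrial gene and its nuclear copy on chromosome 1 can match. The copies Gm29216 (of mt-Co1) and Gm28438 (of mt-Nd3) are annotated as unprocessed pseudogenes on the minus strand, and each differs from its mitochondrial gene at a single aligned base. Capitals mark that base, which is A1066T in Gm29216 and T3C in Gm28438, with the mitochondrial base first and positions counted from 1 at the 5′ end of the mitochondrial gene. The stretches lie on GRCm38 at chrMT:6390-6470 (plus), chr1:24616108-24616188 (minus), chrMT:9459-9539 (plus) and chr1:24613039-24613119 (minus), in this order.
mt-Co1: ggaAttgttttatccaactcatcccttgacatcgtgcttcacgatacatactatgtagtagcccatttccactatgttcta
Gm29216: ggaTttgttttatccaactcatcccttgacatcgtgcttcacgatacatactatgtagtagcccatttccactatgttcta
mt-Nd3: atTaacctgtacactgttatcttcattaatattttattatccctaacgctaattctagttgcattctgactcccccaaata
Gm28438: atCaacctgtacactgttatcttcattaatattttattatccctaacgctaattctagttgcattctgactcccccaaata

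Levels are given in FPKM as the authors deposited them, reads scaled to gene length and to a library constant. The values were whole reads divided by gene length and by 1 constant per library, so the reads could be recovered. Up to a common factor, the constants equalled median-of-ratios size factors of the recovered reads and were not total reads. Such a factor is a library's median, over genes read in all libraries, of reads relative to the geometric mean across libraries. Depth ran from 16462428 to 27875310 reads per library. Kat6a measured 9.15 ± 0.498 FPKM (SD, n = 4) in WT and 7.02 ± 0.683 FPKM (SD, n = 4) in Kat6a+/-, with no overlap, which goes with the labels. All 10 hippocampal neuron markers were detected, with a summed level of 660 to 764 FPKM in WT against 716 to 809 FPKM in Kat6a+/-. Of the 37 mitochondrial genes, 33 averaged 0.5 FPKM or more across libraries and were tested, and all 33 reached that average in both groups. The 4 untested genes are tRNAs. mt-Tf had 1 read, in Kat6a+/- 1, and mt-Tk had 1 read, in WT 4. mt-Ts1 and mt-Td had 0 of 160495197 reads over the 8 libraries, which allows a level of up to 0.0187 CPM (reads scaled to the total of all reads) when 3 counts are taken as the limit for counting error alone.

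The mitochondrial genes held 6811536 reads over the 8 libraries, of which 5730312 fell on protein-coding genes, 1059492 on rRNA genes and 21732 on tRNA genes. Their share of all reads was 4.69%, 4.05%, 4.33% and 4.44% in WT replicates 1 to 4. In Kat6a+/- replicates 1 to 4 it was 4.03%, 4.32%, 4.21% and 3.90%. The groups overlapped, with means of 4.38% ± 0.268 (SD, n = 4) and 4.12% ± 0.188 (SD, n = 4). Protein-coding genes took 3.68% ± 0.239 (SD, n = 4) of reads in WT and 3.47% ± 0.169 (SD, n = 4) in Kat6a+/-. The rRNA genes took 0.686% ± 0.0364 (SD, n = 4) and 0.630% ± 0.0416 (SD, n = 4), and the tRNA genes 0.0145% ± 0.00162 (SD, n = 4) and 0.0126% ± 0.00176 (SD, n = 4). Each class had a lower mean share in Kat6a+/- and overlapped between the groups. These sums are descriptions without a test. In tissue RNA, fewer cells of a type and less RNA per cell cannot be told apart.

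Along the genome the levels were very uneven. Of the 10 genes with the highest mean FPKM among all genes listed, 9 were mitochondrial. mt-Co1, which encodes the catalytic subunit of cytochrome c oxidase, was highest of the mitochondrial genes at a mean of 9104 FPKM and held 39.5% of the mitochondrial protein-coding reads. It was followed by mt-Nd1 at 5139 FPKM, a subunit of complex I, and mt-Cytb at 4981 FPKM, the cytochrome b subunit of complex III. mt-Co1 stood above mt-Nd1 in all 8 libraries with no overlap of their ranges, and mt-Cytb likewise stood above the complex I subunit gene mt-Nd2, at 2752 FPKM. The ranges of mt-Nd1 and mt-Cytb overlapped, although mt-Nd1 was the higher in each of the 8 libraries.

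Between mt-Nd2 and mt-Nd6 each gene overlapped its neighbour in the order of levels. The small rRNA gene mt-Rnr1 averaged 2674 FPKM and the large rRNA gene mt-Rnr2 averaged 2526 FPKM. mt-Nd5, mt-Nd4 and mt-Nd6, all subunits of complex I, averaged 2321, 1961 and 1942 FPKM. mt-Nd4 was above mt-Nd6 in 4 of 8 libraries. Below mt-Nd6 the levels dropped with no overlap to mt-Nd3 at 111 FPKM and then to mt-Co2 at 42.5 FPKM, mt-Atp6 at 38.4 FPKM, mt-Co3 at 32.5 FPKM and mt-Nd4l at 27.3 FPKM. mt-Atp8, a small subunit of ATP synthase, was lowest at 4.03 FPKM, with 11 to 23 reads per library.

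**Figure D1:**
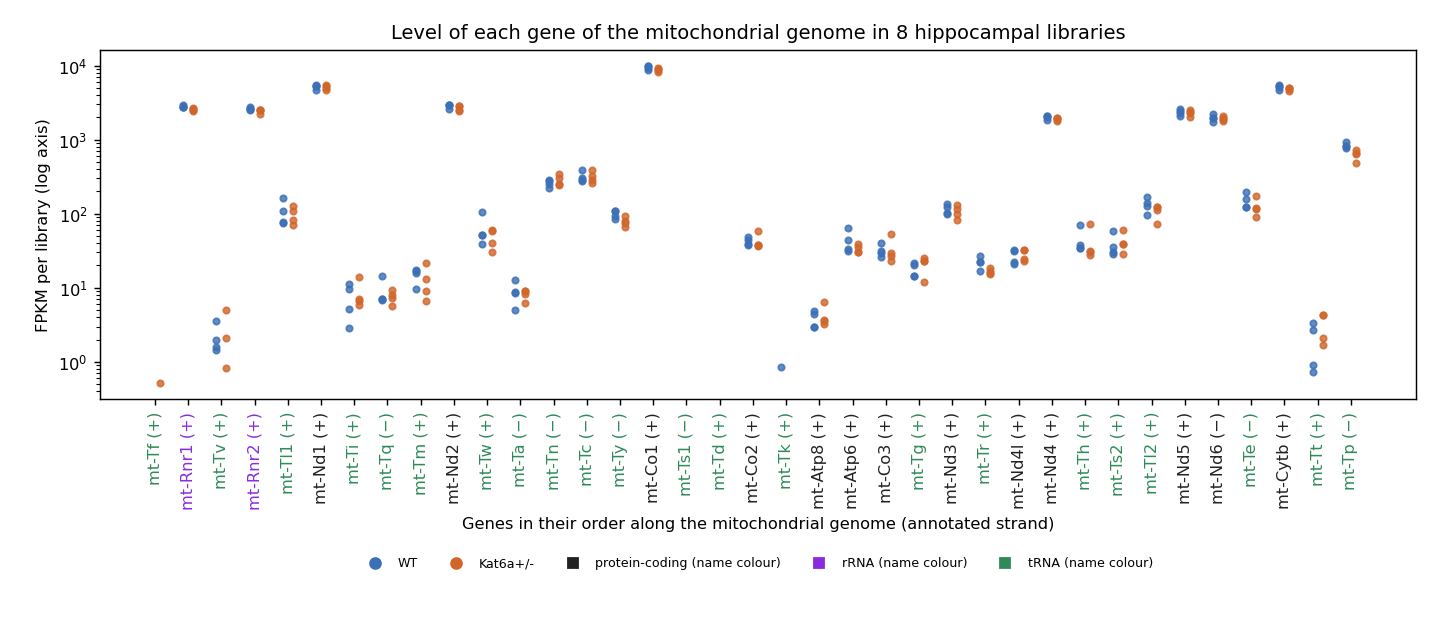
Each point is the FPKM (log axis) of a gene in a library, WT in blue and Kat6a+/- in orange, with the 37 genes in genome order and the annotated strand beside each name; values of 0 cannot be drawn on this axis. The abundant genes stand above 1000 FPKM in both genotypes, and the stretch from mt-Ts1 to mt-Nd4l reaches at most 134 FPKM.

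Ratios of FPKM between 4 pairs of neighbouring genes were compared between the genotypes. mt-Atp8 and mt-Atp6 overlap by 43 bases and are carried on a shared mRNA, and the ratio of their FPKM was 0.0969 ± 0.0407 (SD, n = 4) in WT and 0.130 ± 0.0568 (SD, n = 4) in Kat6a+/-. mt-Nd4l and mt-Nd4 overlap by 7 bases on another shared mRNA, and their ratio was 0.0132 ± 0.00262 (SD, n = 4) and 0.0147 ± 0.00230 (SD, n = 4). The rRNA ratio, mt-Rnr1 to mt-Rnr2, was 1.07 ± 0.0311 (SD, n = 4) and 1.05 ± 0.0305 (SD, n = 4). mt-Nd6, the protein-coding gene of the minus strand, stood at 0.8287 ± 0.0262 (SD, n = 4) and 0.846 ± 0.0277 (SD, n = 4) of mt-Nd5, which it overlaps tail to tail by 14 bases. No ratio differed between genotypes by the exact two-sided permutation test, with p from 0.40 to 0.486 and a Benjamini-Hochberg adjusted p of 0.486 for each of the 4. Whether counting used the strand is not given in the sources used here, so reads of overlapping genes on opposite strands cannot be told apart.

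The low protein-coding genes are those that an annotated nuclear transcript repeats almost in full, except for mt-Atp8, which has no such annotated match. Only annotated transcripts were searched, so a repeat elsewhere in the nuclear genome would have been missed. A run of 7 pseudogenes on the minus strand of chromosome 1, at chr1:24611535-24616197 on GRCm38, aligns to the mitochondrial interval chrMT:6390-11042. The copies Gm28661 of mt-Co2, Gm10925 of mt-Atp6, Gm28437 of mt-Co3, Gm10222 of mt-Nd4l and Gm28439 of mt-Nd4 were identical to their mitochondrial gene over the aligned bases. Among all stretches of 100 bases of a gene, the share also present in another annotated transcript was 99.9% for mt-Co3, 99.5% for mt-Co2 and for mt-Atp6, 98.5% for mt-Nd4l and 97.6% for mt-Nd3. It was 60.8% for mt-Nd4, 30.8% for mt-Co1 and 3.19% for mt-Nd2. For mt-Rnr1, mt-Rnr2, mt-Nd1, mt-Nd5, mt-Nd6, mt-Cytb and mt-Atp8 it was 0.

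Reads were listed on the copies too. Over the 8 libraries Gm28661 held 5913 reads against 4835 on mt-Co2, which is 55.0% of the pair. Gm10925 held 5029 against 4273 on mt-Atp6, or 54.1%. The share on the copy was 44.9% for mt-Co3 and 40.5% for mt-Nd4l, but 7.54% for mt-Nd3, 0.524% for mt-Nd4 and 0.127% for mt-Co1. Gm28439 covers only 63.6% of mt-Nd4, and Gm29216 only 31.3% of mt-Co1. The reads of the whole mitochondrial gene were counted, so these shares are not like those of the pairs covered almost in full. Pseudogenes on chromosome 2 that share 100-base stretches held reads too, and the pair shares leave those reads out. Gm13340, which shares with mt-Co1, held 1790 reads, Gm13341 (mt-Co2) 586 and Gm13339 (mt-Nd2) 73. Reads of a copy and of its mitochondrial gene cannot be told apart where the sequence is identical, and how reads with several matches were counted is not given in the sources used here. The levels of mt-Co2, mt-Atp6, mt-Co3, mt-Nd4l and mt-Nd3 are therefore uncertain. Those of mt-Nd4 and mt-Co1 are uncertain in part, as 60.8% and 30.8% of their 100-base stretches are shared. The same limit holds for ratios and orders of level that rest on any of these genes.

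mt-Atp8 has no annotated copy, but it lies in the same interval. The spacing between neighbouring copies on chromosome 1 equals that between the mitochondrial genes in the gap of 140 bases that holds mt-Td and nearly all of mt-Ts1, and in the gap of 233 bases that holds mt-Tk and most of mt-Atp8. These 3 tRNAs are among the 4 that had at most 1 read. The gap of 69 bases that holds mt-Tg is also equal on both chromosomes, and the gap that holds mt-Tr is 73 bases on MT and 74 on chromosome 1. These tRNAs had reads in every library, 214 for mt-Tg and 209 for mt-Tr in all, so the tRNAs of the interval were not uniformly unread. The sequence of chromosome 1 between the copies was not analysed here.

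**Figure D2:**
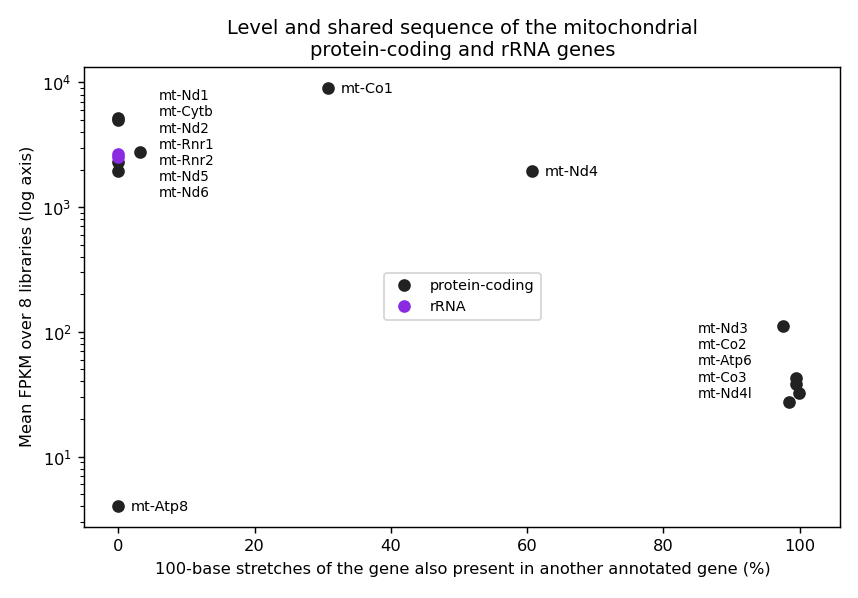
For each protein-coding gene (black) and rRNA gene (purple), the share of its 100-base stretches also found in another annotated transcript is set against its mean FPKM over the 8 libraries (log axis). The 5 genes with at least 97.6% shared lie between 27.3 and 111 FPKM, and mt-Atp8 is low with no 100-base stretch found in another annotated transcript.

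The tRNA reads were concentrated on few genes, most of them annotated on the minus strand. The 8 minus-strand tRNA genes held 78.3% of the tRNA reads and the 14 plus-strand genes 21.7%. As strand use in counting is not given, this describes the genes' annotation, and the strand of the RNA that was read cannot be told apart. mt-Tp, the proline tRNA, held 7950 reads, followed by mt-Tc (cysteine) with 3295, mt-Tn (asparagine) with 3111, mt-Te (glutamate) with 1523 and mt-Tl2 (leucine) with 1371. mt-Tp ranked 21 among all genes by mean FPKM. Its FPKM rests on a gene of 67 bases, and a short gene gives a high FPKM from few reads. Several tRNA genes abut or overlap a neighbour, and how reads that span neighbouring genes were counted is not given in the sources used here. Reads on a tRNA gene do not show whether the tRNA had been cut out of its precursor, so they are not levels of mature tRNA.

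The genotypes were compared with limma on log2(FPKM + 0.5) over all 14159 tested genes. No mitochondrial gene passed an adjusted p of 0.05, where 0% of all tested genes passed. Of the 33 tested mitochondrial genes, 25 had a fitted log2 fold change below 0 and 8 above, against 49.4% of all tested genes below 0. Genes of a strand share precursor transcripts, so their directions are not independent of each other. At an unadjusted p under 0.05, 4 were lower in Kat6a+/-, with a background of 2.63% of all tested genes, and 0 were higher, with a background of 1.78%. All Kat6a+/- values lay below all WT values for 3 of the 33, mt-Rnr1, mt-Rnr2 and mt-Tp, against 1.53% of all tested genes. None had all Kat6a+/- values above all WT values, against 1.09%.

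The count tests on the recovered reads gave similar numbers. At an unadjusted p under 0.05 edgeR had 3 mitochondrial genes lower and 0 higher, with backgrounds of 2.54% and 1.81%. DESeq2 had 4 lower and 0 higher, with backgrounds of 1.88% and 1.42%, and limma-voom had 3 lower and 0 higher, with backgrounds of 2.39% and 1.85%. No mitochondrial gene passed an adjusted p of 0.05 in these tools, where DESeq2 called 0.0353% of its genes and the other two none. mt-Rnr1, mt-Ty and mt-Tp were lower at an unadjusted p under 0.05 in each of these tools and in limma. mt-Tr reached that limit in limma alone and mt-Rnr2 in DESeq2 alone, though both had log2 fold changes below 0 in every tool.

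Both rRNA genes had lower values in Kat6a+/-. mt-Rnr1, at chrMT:70-1024 on the plus strand, measured 2939, 2788, 2764 and 2713 FPKM in WT replicates 1 to 4. In Kat6a+/- replicates 1 to 4 it measured 2679, 2559, 2548 and 2404 FPKM. Every Kat6a+/- value was below every WT value, and the Kat6a+/- mean was 91.0% of the WT mean. Its log2 fold change reached -0.14 (SE 0.0507, 95% interval -0.25 to -0.024), with a limma adjusted p of 0.9998 and an exact permutation p of 0.0286, the smallest that the 70 assignments can give.

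mt-Rnr2, at chrMT:1094-2675 on the plus strand, measured 2780.5, 2509.7, 2589.5 and 2616 FPKM in WT. In Kat6a+/- it measured 2489, 2492, 2498 and 2236 FPKM. The groups did not overlap, but the highest Kat6a+/- value and the lowest WT value lay close together. Its log2 fold change came to -0.11 (SE 0.0555, 95% interval -0.24 to 0.012), with a limma adjusted p of 0.9998 and an exact permutation p of 0.0286. The separation of the rRNA genes depended on the scaling. In CPM, scaled to the total of all reads, mt-Rnr1 ran from 2557 to 2884 in WT and from 2257 to 2642 in Kat6a+/-, and mt-Rnr2 from 3980.2 to 4520 and from 3477 to 4066, so both overlapped. Set against the reads of the mitochondrial protein-coding genes they overlapped as well, with exact permutation p of 0.371 and 0.514.

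mt-Tp had the lowest limma p of the mitochondrial genes. It measured 828, 762, 942 and 825 FPKM in WT replicates 1 to 4. In Kat6a+/- replicates 1 to 4 it measured 663, 713, 634 and 488 FPKM. No Kat6a+/- library reached the lowest WT library, and Kat6a+/- 4 was the lowest of the 8. The Kat6a+/- mean was 74.4% of the WT mean, and the log2 fold change was -0.44 (SE 0.111, 95% interval -0.68 to -0.19). The unadjusted limma p was 0.0029 and the adjusted p 0.9998, with an exact permutation p of 0.0286. DESeq2 on the recovered reads gave an adjusted p of 0.0816. The groups also stayed apart in CPM, at 51.2 to 63.3 in WT and 32.1 to 48.4 in Kat6a+/-. As a share of mitochondrial protein-coding reads mt-Tp was 0.154% ± 0.0137 (SD, n = 4) in WT and 0.121% ± 0.0182 (SD, n = 4) in Kat6a+/-, again without overlap (exact permutation p = 0.0286).

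The tyrosine and arginine tRNA genes had lower mean FPKM in Kat6a+/- with overlap between the groups. mt-Ty measured 84.2, 109, 93.8 and 108 FPKM in WT against 75.2, 80.6, 91.6 and 66.8 FPKM in Kat6a+/-. Only Kat6a+/- 3 lay above the lowest WT library. Its log2 fold change stood at -0.33 (SE 0.106), with a limma adjusted p of 0.9998 and an exact permutation p of 0.0571. mt-Tr measured 16.7, 22.3, 21.9 and 26.8 FPKM in WT against 15.3, 16.9, 18.6 and 16.03 FPKM in Kat6a+/-, on 19 to 33 reads per library. Its log2 fold change was -0.37 (SE 0.121), with a limma adjusted p of 0.9998 and an exact permutation p of 0.0857.

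The other abundant tRNAs overlapped between the genotypes, and the 95% intervals of their fold changes held 0. mt-Tc measured 304, 275, 282 and 387 FPKM in WT against 257, 323, 394 and 285 FPKM in Kat6a+/-, with a log2 fold change of 0.0067 (SE 0.140, limma adjusted p = 0.9998). mt-Tn measured 277, 222, 255 and 289 FPKM in WT against 252, 242, 344 and 306 FPKM in Kat6a+/-, with a log2 fold change of 0.13 (SE 0.118, limma adjusted p = 0.9998). Both ranges overlapped widely. mt-Te and mt-Tl2 had log2 fold changes of -0.27 (SE 0.200) and -0.30 (SE 0.196). Without Kat6a+/- 4 both came to -0.13, and without WT 4 to -0.13 and -0.18, while the lowest values were -0.44 for mt-Te without Kat6a+/- 2 and -0.45 for mt-Tl2 without WT 1. Over the 18 tested tRNAs 12 were lower and 6 higher, and the median of their log2 fold changes was -0.16 against 0.0010 over all tested genes. With a library left out this median ran from -0.28 to 0.012, the latter without WT 4. Kat6a+/- 4 was the lowest library in 10 of the 18. WT 4 was the highest in 6, Kat6a+/- 2 in 5 and Kat6a+/- 3 in 3.

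**Figure D3:**
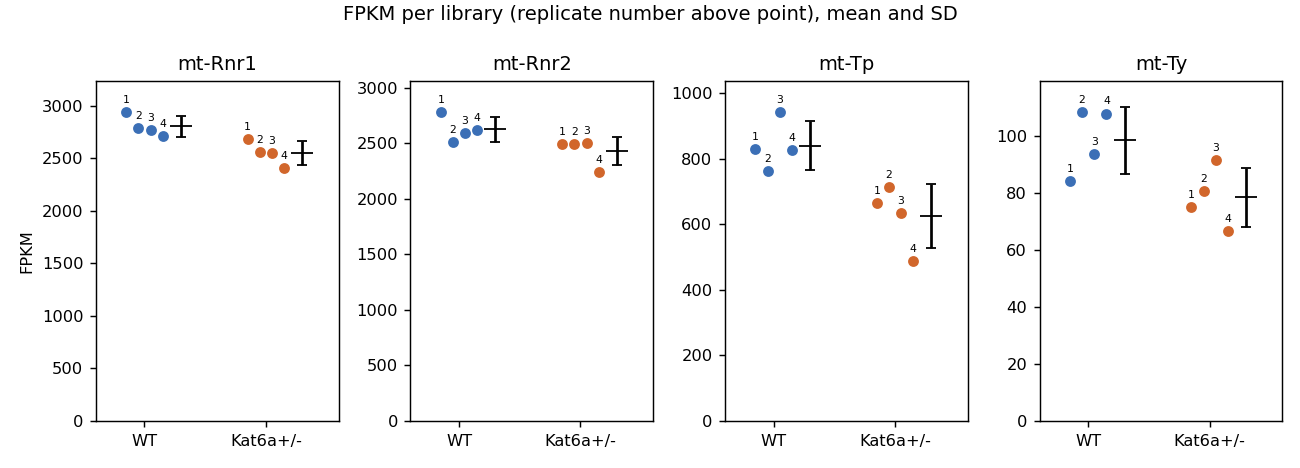
FPKM per library for the rRNA genes and the proline and tyrosine tRNAs, with the replicate number above each point and the mean and SD (n = 4) beside each group. The groups of mt-Rnr1, mt-Rnr2 and mt-Tp do not overlap, and those of mt-Ty do.

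The authors' deposited table of 605 genes with an unadjusted p under 0.05 lists 4 mitochondrial genes, all lower in Kat6a+/-. In the authors' deposited table the log2 fold change of mt-Tp is -0.43 and its adjusted p 0.169. mt-Rnr1, mt-Rnr2 and mt-Ty have -0.14, -0.11 and -0.33 in the authors' deposited table, each with an adjusted p of 0.9998.

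Among the protein-coding genes 11 of 13 had a log2 fold change below 0, with a median of -0.045, and none had an unadjusted limma p under 0.05 or groups apart. mt-Co1 measured 9909, 8795, 9277 and 9712 FPKM in WT against 8198, 9293, 9057 and 8588 FPKM in Kat6a+/-. Kat6a+/- 1 and Kat6a+/- 4 lay below all WT libraries and the other two within their range. For mt-Co1 this gave a log2 fold change of -0.10 (SE 0.0640, 95% interval -0.24 to 0.042) and a limma adjusted p of 0.9998.

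The other abundant mRNAs overlapped between the genotypes too. mt-Nd1 measured 5525, 4739, 5246 and 5368 FPKM in WT against 4701, 5221, 5389.9 and 4924 FPKM in Kat6a+/-. mt-Cytb measured 5428, 4727, 5064 and 5209 FPKM in WT against 4566, 5004, 5032 and 4815 FPKM in Kat6a+/-. In both genes Kat6a+/- 1 was lowest and WT 2 next. The log2 fold changes of the 7 protein-coding genes above 1000 FPKM ran from -0.10 in mt-Nd2 to -0.015 in mt-Nd6, with a median of -0.072. Their 95% intervals all held 0, and that of mt-Nd2 ran from -0.26 to 0.053.

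The highest and lowest libraries were mostly the same for these 7 genes, of which mt-Nd6 lies on the minus strand and the others on the plus strand. WT 1 was highest in 4 of them and WT 4 in 3, and Kat6a+/- 1 was lowest in 5. The summed FPKM of the 7 was 30298, 26518, 28772 and 30128 in WT and 25670, 28589, 28859 and 26757 in Kat6a+/-. WT 2 thus lay below Kat6a+/- 2, Kat6a+/- 3 and Kat6a+/- 4. Kat6a+/- 1 was the deepest library and WT 2 the shallowest, and the part of depth in these levels was not tested.

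The low mRNAs with nuclear copies varied more between libraries. mt-Co2 measured 43.9, 37.9, 49.2 and 38.8 FPKM in WT against 58.3, 37.3, 36.9 and 38.1 FPKM in Kat6a+/-, so a single library, Kat6a+/- 1, stood above the rest. mt-Co3 measured 29.7, 26.4, 40.2 and 31.1 FPKM in WT against 52.7, 29.8, 26.6 and 23.2 FPKM in Kat6a+/-, with Kat6a+/- 1 again highest. mt-Atp6 was highest in WT 1, at 64.1 FPKM, and ran from 30.2 to 44.0 FPKM in the other 7 libraries. Their log2 fold changes were -0.013 (SE 0.145), -0.0027 (SE 0.226) and -0.31 (SE 0.197), each with a limma adjusted p of 0.9998, and those of mt-Co2 and mt-Co3 turned above 0 under edgeR, DESeq2 and limma-voom on the recovered reads. Without WT 1 the log2 fold change of mt-Atp6 was -0.0996.

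The summed level of the nuclear copies was 212, 183, 255 and 194 FPKM in WT against 235, 179.6, 188 and 190.2 FPKM in Kat6a+/-, with overlap. WT 3 was highest in 4 of the 7 copies and Kat6a+/- 1 in 2, whereas the abundant mRNAs were highest in WT 1 or WT 4. The log2 fold changes of the copies had a median of -0.11, with 6 below 0 and 1 above.

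**Figure D4:**
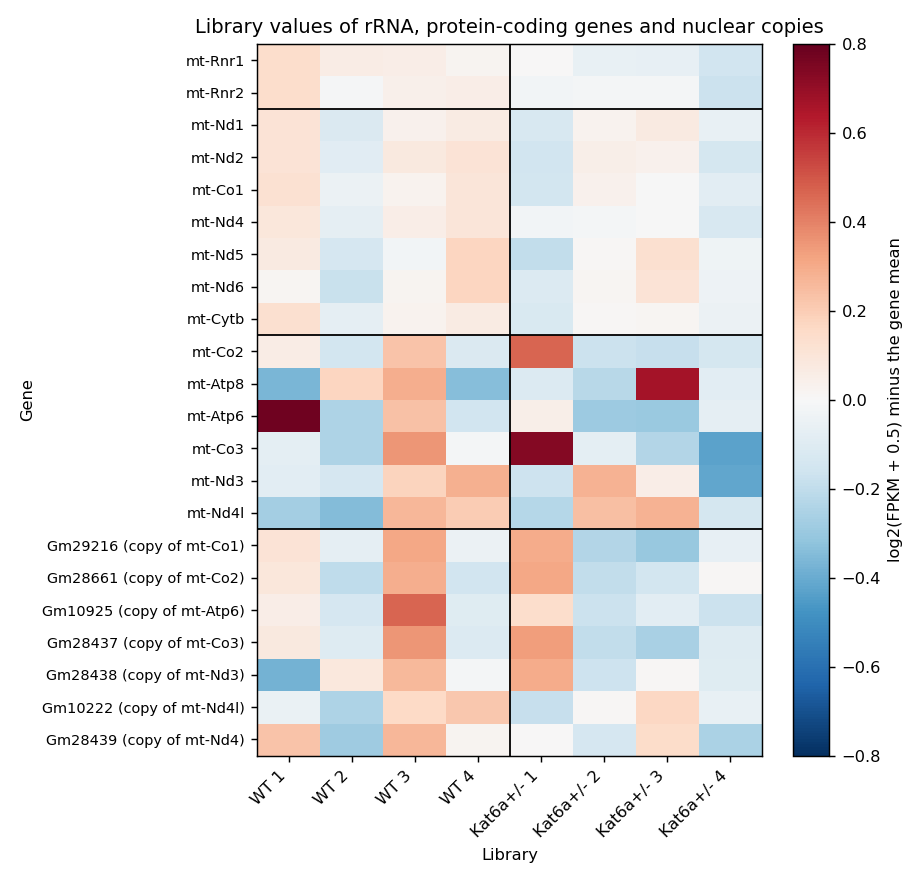
Colour shows log2(FPKM + 0.5) minus the mean of the gene over the 8 libraries, with rRNA genes, abundant mRNAs, low mRNAs and nuclear copies from top to bottom. Kat6a+/- 1 is low for the abundant mRNAs and high for mt-Co2 and mt-Co3, at 58.3 and 52.7 FPKM.

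**Figure D5:**
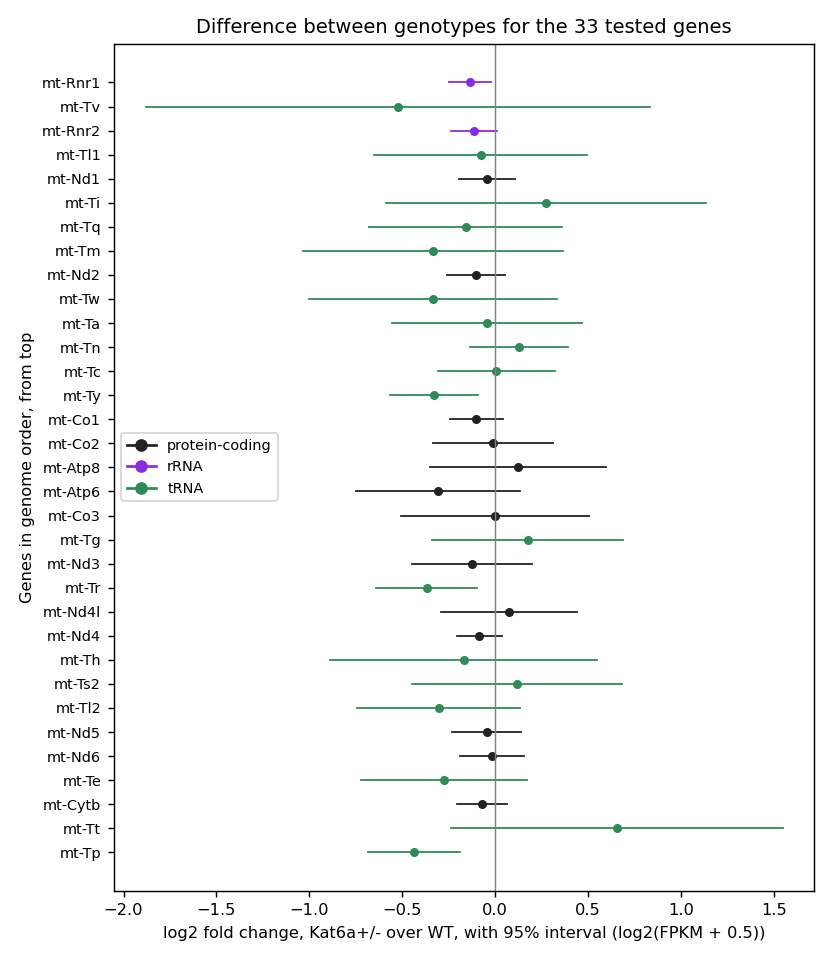
Log2 fold change of Kat6a+/- over WT with its 95% interval from limma for the 33 tested genes in genome order. The intervals of mt-Rnr1, mt-Ty, mt-Tr and mt-Tp lie below 0, and those of rarely read tRNAs such as mt-Tv and mt-Tt are wide.

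Nuclear genes whose products transcribe, process and maintain mitochondrial RNA showed no call at an adjusted p of 0.05 in any of 6 lists. Of 11 tested transcription factors and cofactors 7 were higher and 4 lower, the median being 0.021 on the log2 scale. Polrmt measured 5.36 ± 0.341 FPKM (SD, n = 4) in WT and 5.20 ± 0.410 FPKM (SD, n = 4) in Kat6a+/-. Tfam, which packages mitochondrial DNA and activates its promoters, measured 6.85 ± 0.390 FPKM (SD, n = 4) and 7.12 ± 0.277 FPKM (SD, n = 4). Mrpl12, a ribosomal protein that also binds POLRMT, measured 16.6 ± 0.688 FPKM (SD, n = 4) and 15.1 ± 1.08 FPKM (SD, n = 4), with a log2 fold change of -0.13.

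RNA processing factors split 9 higher and 7 lower among 16 tested, with a median of 0.0095, and Elac2, the enzyme that trims the 3′ end of tRNAs, had a log2 fold change of 0.12. RNA stability factors split 5 and 2, with a median of 0.026. Lrpprc, which stabilises mitochondrial mRNAs, measured 10.03 ± 0.558 FPKM (SD, n = 4) in WT and 10.2 ± 0.821 FPKM (SD, n = 4) in Kat6a+/-. Biogenesis regulators split 2 and 7, with a median of -0.034, and the coactivator gene Ppargc1a measured 7.08 ± 0.297 FPKM (SD, n = 4) and 6.77 ± 0.604 FPKM (SD, n = 4). Translation factors and ribosomal proteins split 6 and 16 among 22, with a median of -0.028. In that list 1 of 22 genes, the translation factor gene Gfm2, had all Kat6a+/- values above WT (log2 fold change 0.12), against 1.09% of all tested genes. The ribosomal protein gene Mrpl19 had all below (log2 fold change -0.095), against 1.53%.

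In the list of DNA replication and nucleotide supply, 1 of 10 tested genes had all Kat6a+/- values above WT and 1 all below, where 1.09% and 1.53% of all tested genes did. Dguok, a mitochondrial deoxynucleoside kinase, measured 2.02 ± 0.0913 FPKM (SD, n = 4) in WT and 2.45 ± 0.146 FPKM (SD, n = 4) in Kat6a+/-, with no overlap and a log2 fold change of 0.22. Twnk, the helicase of mitochondrial DNA replication, measured 3.94 ± 0.167 FPKM (SD, n = 4) and 3.62 ± 0.144 FPKM (SD, n = 4), with no overlap and a log2 fold change of -0.11. Neither passed the adjusted threshold in limma. The list as a whole split 3 higher and 7 lower, with a median of -0.046.

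Other transcript classes are given as counts of fold change directions and summed levels, without a test. All 7 tested nuclear-retained noncoding RNAs had a log2 fold change above 0, and their summed level was 185 to 278 FPKM in WT against 229 to 340.4 FPKM in Kat6a+/-. Oligodendrocyte markers were above 0 in 7 of 7, at 592 to 864 FPKM and 714 to 901 FPKM. Astrocyte markers were below 0 in 7 of 8, at 810.0 to 914 FPKM and 759 to 851 FPKM. Hippocampal neuron markers split 8 above and 2 below, synaptic neuron markers 4 and 3, and microglia markers 4 and 3. Endothelial markers split 4 above and 2 below, and blood markers 1 and 4. Of all tested genes, 49.4% were below 0. Choroid plexus markers were above 0 in 4 of 4 tested. The 7 listed were summed at 28.5 to 41.7 FPKM and 34.8 to 158 FPKM, with Kat6a+/- 2 highest. All of these ranges overlapped, and their part in the mitochondrial values was not tested. Of 9 listed RNAs that carry no poly(A) tail, Rmrp, Rny1, Rny3 and Rpph1 had 0 reads in all 8 libraries, and Terc, Rn7s1, Rn7s2 and Rn7s6 had at most 8 reads in a library. Rn7sk was read in every library, with 24 to 920 reads and 3.47 to 96.6 FPKM. The reads listed on such RNAs thus differed from gene to gene. Neither the selection of RNA before library preparation nor the counting of reads with several matches is given in the sources used here.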

How the data were processed

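Per the labels' protocols, hippocampal RNA was extracted with Trizol, DNase removed residual DNA, and a NEBNext Ultra II kit served for the libraries. The submitters' processing notes name STAR 2.5, HTSeq, DESeq2 and GRCm38 (mm10); what each tool did is not given in the sources used here. The authors deposited FPKM values for 54532 genes. Their table of 605 genes holds, per the file headers, read counts, a normalised signal, log2 fold changes and p-values as deposited. From the FPKM, 100% of values gave whole reads within 0.01, and these equalled the deposited counts for all 605 genes.

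Members were the genes on chromosome MT, 37 in all. Members and lists were chosen with earlier results of these data known. limma 3.58.1 in R 4.3.3 was fitted with a variance trend to log2(FPKM + 0.5) for the 14159 genes that averaged 0.5 FPKM or more. Fold changes on this scale understate low genes. Tests were two-sided, with Benjamini-Hochberg adjustment over all tested genes, and exact permutation used all 70 assignments. edgeR 4.0.16 (quasi-likelihood), DESeq2 1.42.0 and limma-voom were run on recovered reads and checked on simulated data. Named genes were all protein-coding and rRNA members, the 5 tRNAs with most reads, tRNAs with an unadjusted limma p under 0.05, Kat6a, Polrmt, Tfam, Lrpprc, Ppargc1a, up to 3 per list by p, and the nuclear copies with reads. Shared sequence was sought as 100-base stretches of GENCODE M21 transcripts.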

Additional observations from a re-analysis of the deposited data

Results flagged for a closer look

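Each genotype's 4 values of the 52 named genes were screened for a library far from the others by Dixon's criterion, which gave 6 cases among 104 groups, where chance flags about 1 group in 20. mt-Rnr2 was low in Kat6a+/- 4, at 2236 FPKM. mt-Nd2 was low in WT 2, at 2575 FPKM. mt-Co2 was high in Kat6a+/- 1, at 58.3 FPKM, and mt-Atp8 was high in Kat6a+/- 3, at 6.47 FPKM. Among nuclear genes, the RNA helicase gene Supv3l1 stood apart in WT 4, at 4.98 FPKM, and Twnk in Kat6a+/- 1, at 3.41 FPKM.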

How the results depend on the processing

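limma called 0 genes, and 372 lower and 252 higher at an unadjusted p under 0.05. edgeR and limma-voom called 0 and DESeq2 called 5, none of them mitochondrial. Leaving out each library gave 0 to 1 called genes, with 1 without WT 3 and 1 without Kat6a+/- 3. The log2 fold change of mt-Co2 became 0.018 in edgeR, 0.013 in DESeq2 and 0.012 in limma-voom, that of mt-Co3 became 0.076, 0.059 and 0.048, and that of mt-Tc became -0.014 in limma-voom; the cause was not tested. With a library left out the log2 fold change ran from -0.17 to 0.060 for mt-Co2, -0.25 to 0.14 for mt-Co3, -0.11 to 0.11 for mt-Tc, -0.076 to 0.24 for mt-Atp8, -0.028 to 0.18 for mt-Nd4l, -0.097 to 0.013 for mt-Nd5, -0.078 to 0.040 for mt-Nd6, -0.12 to 0.033 for Gm10222, -0.096 to 0.12 for Gm28438, -0.12 to 0.081 for Gm28661 and -0.015 to 0.072 for Lrpprc. It stayed below 0 for mt-Rnr1 (-0.16 to -0.11), mt-Rnr2 (-0.13 to -0.073), mt-Tp (-0.50 to -0.32), mt-Ty, mt-Tr, mt-Atp6 (-0.44 to -0.0996), mt-Te (-0.44 to -0.13) and mt-Tl2 (-0.45 to -0.13). List medians ran from -0.0027 to 0.066 for RNA stability and from -0.00034 to 0.068 for transcription, from -0.28 to 0.012 for the mitochondrial tRNAs and from -0.011 to 0.027 for RNA processing. Deviations of same-numbered libraries had correlations of 0.166, -0.0749, 0.0652 and 0.00507, the first being the highest of any WT and Kat6a+/- pair. With 4 libraries per genotype these cannot decide whether replicate numbers pair the libraries. With the replicate number as a block 0 genes were called. The block gave 770 genes with an unadjusted limma p under 0.05, against 624 without it.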
